A study of Mus musculus with 4 samples.

Results

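Defb19, Defb36, Wfdc8, Wfdc10, Wfdc2 and Rnase12 are 6 small secreted-protein genes, known from the reproductive tract, out of 30738 genes named on arrays of embryonic germ cells. They were chosen by gene family and name after the log2 signals of these same 4 arrays had been seen, so their differences are given as descriptions with no test. The MC and FC arrays hold male and female germ cells of Max fl/fl embryos with a CreERT2 transgene driven by the distal enhancer of Oct4. The M and F arrays hold male and female germ cells of embryos without that transgene, which are also Max fl/fl and were also exposed to tamoxifen. All embryos carried the strain label C57/BL6. Tamoxifen was given to the pregnant mice at E8.5, and primordial germ cells were collected at E12.5 with an anti-SSEA-1 magnetic sort after the mesonephros had been taken off the gonads. The transgene marks germ cells through an Oct4 enhancer, the share of cells with a deleted Max allele is not part of the tables used here, and the number of embryos behind each array is not given in the sources used here. There was 1 array per condition, so no spread between samples could be measured for any value.

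Beta-defensins are short, cationic, cysteine-rich peptides that are secreted and can kill microbes, and in mice many of them are made by the epithelium of the epididymis. Defb19, also called testis defensin-like, is known in mice from Sertoli cells, the somatic cells that surround germ cells in the testis cord. WFDC proteins carry the whey acidic protein (WAP) disulfide core, a fold that often inhibits serine proteases, and many of their genes lie together on mouse chromosome 2. Rnase12 belongs to the RNase A family, in a subgroup of divergent genes known from the epididymis.

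The promoters of a pair of genes that were at least 2-fold higher in MC than in M, Wfdc10 and Rnase12, are shown beside that of Wfdc2, which was not. Each run is the 250 bases before the RefSeq start of the gene in GRCm38.p6, on the gene's own strand, and capitals mark the single motif match described after the runs.
Wfdc10: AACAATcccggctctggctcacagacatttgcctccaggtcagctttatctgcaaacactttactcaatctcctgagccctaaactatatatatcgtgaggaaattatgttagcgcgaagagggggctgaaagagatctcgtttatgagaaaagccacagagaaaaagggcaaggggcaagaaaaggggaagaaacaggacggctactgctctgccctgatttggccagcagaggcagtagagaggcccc
Rnase12: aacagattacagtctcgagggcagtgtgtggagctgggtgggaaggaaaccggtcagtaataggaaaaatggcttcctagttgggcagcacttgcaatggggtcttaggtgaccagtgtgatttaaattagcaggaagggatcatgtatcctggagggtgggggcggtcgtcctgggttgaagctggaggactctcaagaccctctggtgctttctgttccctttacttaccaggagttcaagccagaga
Wfdc2: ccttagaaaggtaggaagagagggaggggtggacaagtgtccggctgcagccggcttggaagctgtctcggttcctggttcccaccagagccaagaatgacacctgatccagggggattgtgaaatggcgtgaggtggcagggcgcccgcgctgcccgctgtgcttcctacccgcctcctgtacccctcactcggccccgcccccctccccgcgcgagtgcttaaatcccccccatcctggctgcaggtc
The Wfdc10 window is chr2:164655796-164656045 on the plus strand, the Rnase12 window chr14:51057243-51057492 on the minus strand and the first of 2 Wfdc2 windows chr2:164562465-164562714 on the plus strand. RefSeq promoters were matched for 5 of the 6 genes, Defb19 excepted, in 7 windows. CpG dinucleotides numbered 14 in the Wfdc2 window, 6 in that of Wfdc10 and 4 in that of Rnase12, against a median of 6 over 32851 promoters. GC content was 64.8% for Wfdc2, 49.2% for Wfdc10 and 51.6% for Rnase12. Defb36, which was not 2-fold higher in MC, had 5 CpG and 50.4% GC, and Wfdc8, which was, had 6 CpG in each of its 2 windows with 58.0% and 57.6% GC, so these counts did not separate the genes by their difference. The 7 windows were searched on both strands for CACGTG (the E-box bound by MAX with its partners, in 6.02% of all promoters), TCCCGC (E2F-type, in 16.9%), AACAAT (SOX-type, in 9.42%) and AAGGTCA (NR5A-type, in 4.08%). The only match was AACAAT in Wfdc10, whose first base lies 250 bases before the start.

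The arrays carried signals of germ cell genes beside those of genes listed for somatic cells, with some signals against a label. A list of 21 germ cell genes had a mean log2 signal of 9.63 in MC and 9.44 in M, and 10.37 in FC and 10.07 in F. Its genes differed widely in signal. Dppa5a, a germ cell and pluripotency gene, was between 19.60 and 19.81 on all 4 arrays, and Dppa3, a marker of primordial germ cells, was between 14.21 and 14.52. Fut9, of the same list, was between 4.56 and 4.74. Krt18, listed for coelomic epithelium, was between 12.71 and 14.19. The median of the 13 measured genes of that list was far lower, between 6.60 and 6.97 on the 4 arrays. Which cells gave the Krt18 signal was not tested. Max was at 10.33 in MC and 10.64 in M, and at 10.31 in FC and 10.75 in F. Its cluster was not read by exon here, so these values do not measure the deletion. The F array held Y-linked signals that the FC array did not: the Y-linked gene Uba1y was at 5.52 in FC and 9.69 in F, and Eif2s3y was at 4.78 in FC and 6.60 in F. On the male arrays, Uba1y was at 13.26 in MC and 12.82 in M, and Eif2s3y was at 8.54 in MC and 7.90 in M. The cluster of Sry, the testis-determining gene, was between 6.80 and 7.23 on all 4 arrays and did not separate the sexes. Every FC minus F and M minus F value below rests on the F array and cannot be had without it.

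Defb19 was highest on the MC array. Its log2 signal was 6.38 in MC and 4.40 in M, and 4.02 in FC and 4.29 in F. MC was the high array, and the other 3 lay within a narrow band below it. Those 3 signals were below the median over all genes, which was 4.5 on M, 4.48 on FC and 4.47 on F. Whether they lie above background was not tested. The difference MC minus M was 1.98 (log2), a 3.94-fold higher signal, which ranked 4 of 30738 genes. MC minus FC was 2.36 (5.13-fold higher, rank 11), while FC minus F was -0.27 and M minus F was 0.11. Genes of like signal, 4222 with a mean within 0.5 of that of Defb19, had an SD of 0.289 for MC minus M around a median of 0.02, and 1 of these 4222 was at or above Defb19. This SD mixes differences between genes with measurement error and is no error between replicates. Defb36, a beta-defensin of the same locus known from the mouse epididymis, was flat: its log2 signal was 4.85 in MC and 4.83 in M, and 4.74 in FC and 4.87 in F. Its MC minus M was 0.02 and its FC minus F was -0.13, inside the SDs of 0.293 and 0.288 among 4058 genes of like signal.

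**Figure D1:**
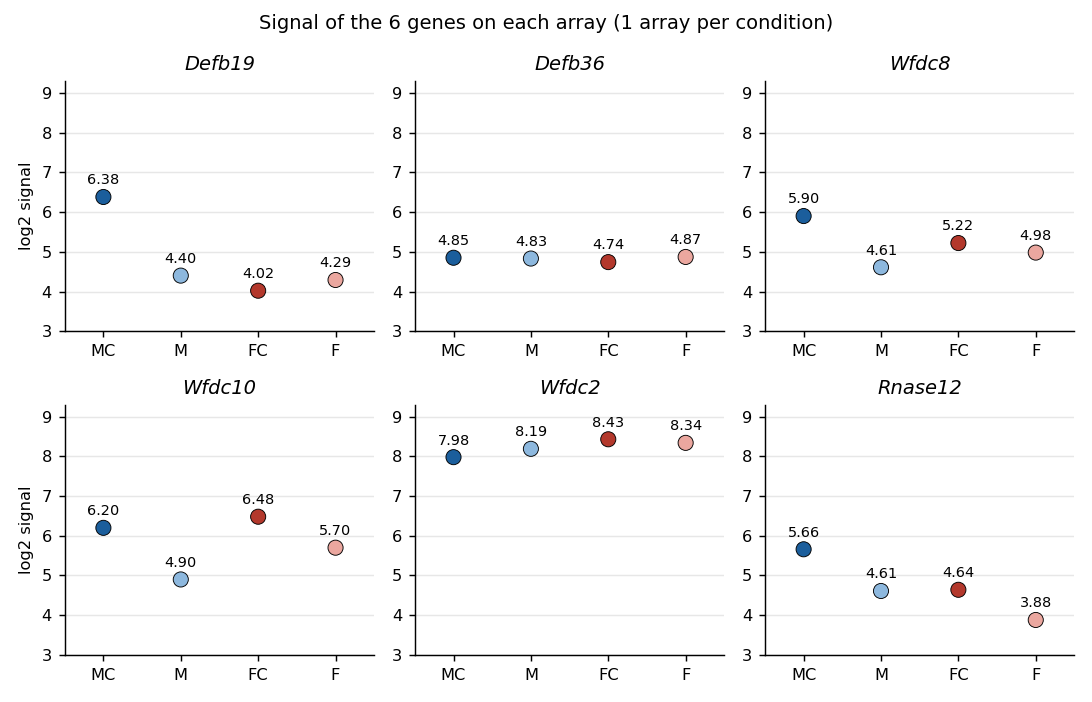
Log2 signal (y axis) of each of the 6 genes on the MC, M, FC and F arrays (x axis), 1 point per array and no error bars because each condition has 1 array. Defb19 is high on MC alone at 6.38, Wfdc10 is lowest on M at 4.90, and Defb36 and Wfdc2 are nearly level.

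The WFDC genes showed 3 different patterns. Wfdc8, which encodes a secreted protein with WAP domains and a Kunitz-type inhibitor domain, had a log2 signal of 5.90 in MC and 4.61 in M, and 5.22 in FC and 4.98 in F. Its MC minus M was 1.29 (2.45-fold higher, rank 28 of 30738), with M the lowest array and MC the highest. Its FC minus F was 0.24 and its MC minus FC was 0.68. Wfdc10, a short single-domain member of the family, had a log2 signal of 6.20 in MC and 4.90 in M, and 6.48 in FC and 5.70 in F. Both arrays with CreERT2 were above their counterparts without it, and M was the low array. MC minus M was 1.30 for Wfdc10 (2.46-fold higher, rank 27). FC minus F was 0.78 (1.72-fold higher, rank 296), under the 2-fold line, and M minus F was -0.80. Wfdc2, an epithelial WAP protein also known as HE4, was nearly level, with a log2 signal of 7.98 in MC and 8.19 in M, and 8.43 in FC and 8.34 in F, and its farthest difference was -0.45, for MC minus FC. The genes of like signal had SDs of 0.295 around Wfdc8, 0.304 around Wfdc10 and 0.335 around Wfdc2 for MC minus M.

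Rnase12 was higher on the array with CreERT2 in both sexes, past 2-fold in the male pair and short of it in the female pair. Its log2 signal was 5.66 in MC and 4.61 in M, and 4.64 in FC and 3.88 in F. The order ran MC, then FC and M nearly level, then F. The median over all genes was 4.5 on M, 4.48 on FC and 4.47 on F. Rnase12 was thus near that median in M and FC and below it in F. MC minus M was 1.05 (2.07-fold higher, rank 55), just inside the 2-fold line, and FC minus F was 0.76 (1.69-fold higher, rank 321), just outside it. MC minus FC was 1.02 (2.03-fold higher) and M minus F was 0.73. The MC minus FC value fell under 2-fold, to between 0.91 and 0.929, when the arrays were rescaled by quantiles, by medians or by cyclic loess.

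Counted together, 4 of the 6 genes (Defb19, Wfdc10, Wfdc8 and Rnase12) were at least 2-fold higher in MC than in M and 0 were 2-fold lower. Over all genes, 0.224% were 2-fold higher and 0.475% 2-fold lower in that comparison. These are 69 genes higher and 146 lower as deposited, and the split moved with the scaling to 98 and 105 with quantiles, 57 and 233 with medians and 86 and 105 with cyclic loess. Since the genes were chosen with these values known, nothing is read from the contrast between the counts. Between FC and F, 0 of the 6 were 2-fold apart, against 0.547% of all genes higher in FC and 0.508% lower. Between M and F, 0 of the 6 were 2-fold apart, against 0.729% higher in M and 0.605% lower. The 224 higher and 186 lower genes behind these shares became 172 and 223 with quantiles, 167 and 261 with medians and 278 and 147 with cyclic loess. Between MC and FC, 2 of the 6 (Defb19 and Rnase12) were 2-fold higher and 0 lower, against 0.979% higher in MC and 1.42% lower. These 301 higher and 436 lower genes became 216 and 622 with medians. The median difference of the 6 was 1.17 for MC minus M and 0.165 for FC minus F, and it was -0.095 for M minus F and 0.395 for MC minus FC. The medians of all genes lay between -0.01 and 0.02. MC minus M shares M with M minus F, and FC minus F shares F with it, so these columns are not independent of each other.

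**Figure D2:**
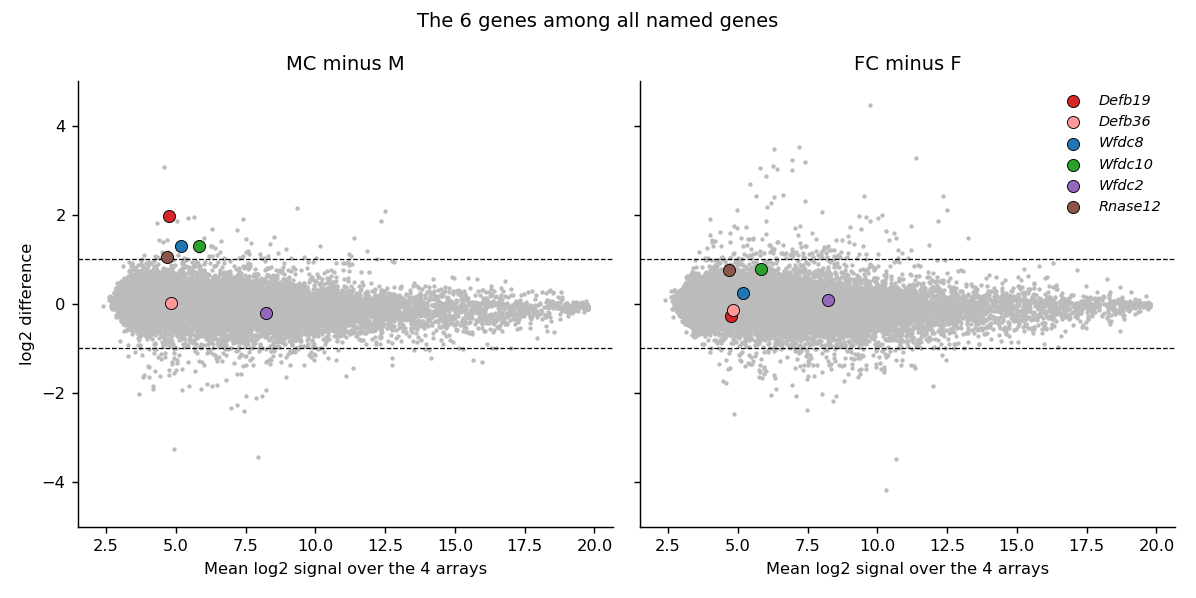
Log2 difference (y axis) against mean log2 signal over the 4 arrays (x axis) for 30738 genes in grey, with the 6 genes in colour and dashed lines at 2-fold. Left is MC minus M, where 4 of the 6 lie above the upper line, and right is FC minus F, where none does.

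The other measured genes of the 3 families are given by their ranges. Of 49 beta-defensin genes listed, 42 were measured, and apart from Defb19 and Defb36 the 40 others spanned -0.57 (Defb8) to 0.42 (Defb44-ps) for MC minus M, with a median of 0.02. Of 25 genes with a WAP domain, 22 were measured, and the 19 that are not among the 6 spanned -0.38 (Wfdc18) to 0.45 (Wfdc6b), with a median of 0.05. Of 24 RNase A family genes, 16 were measured, and the 15 besides Rnase12 spanned -0.19 (Ear14) to 0.42 (Rnase9), with a median of 0.05. None of these 40, 19 and 15 genes was 2-fold apart in MC minus M, FC minus F, M minus F or MC minus FC. With 0.224% to 1.42% of all genes called per direction, a count of 0 in lists of this size is near the share over all genes and is no result about the families. For FC minus F their medians were -0.01 among beta-defensins, 0.02 among WAP genes and 0.06 among RNase A genes. The families were dim. With the 6 genes included, their median log2 signals on M were 4.12, 3.94 and 3.51 in that order, against 4.5 over all genes. Whether such signals lie above background was not tested, so a small difference among them need not mean steady expression.

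**Figure D3:**
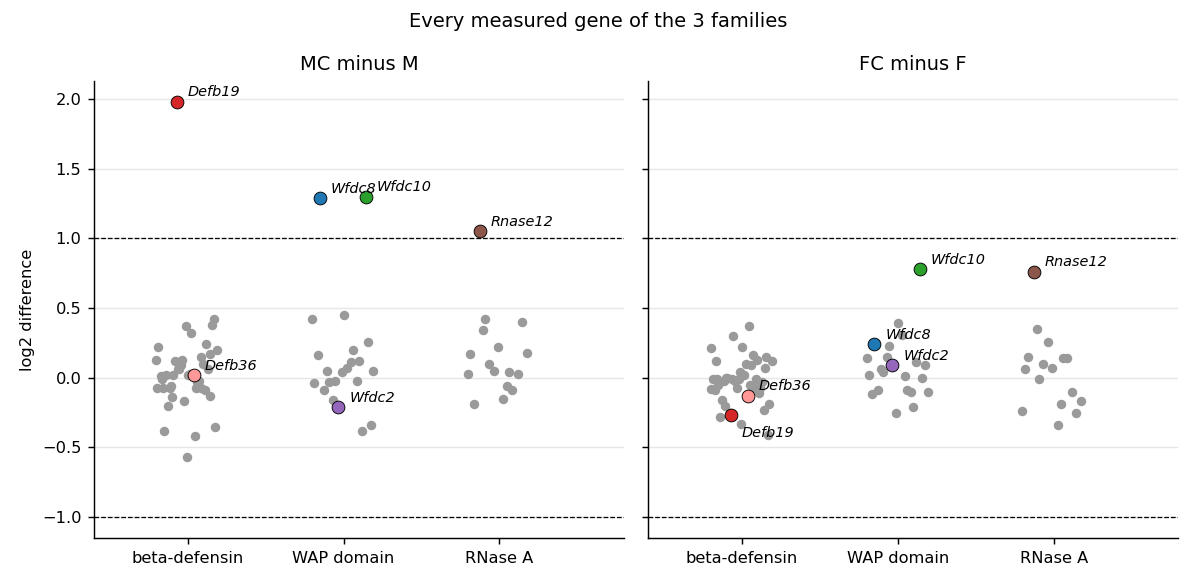
Log2 difference (y axis) of every measured gene of the beta-defensin, WAP domain and RNase A families (x axis, 1 point per gene, spread sideways for legibility), MC minus M at left and FC minus F at right, with dashed lines at 2-fold. Defb19, Wfdc8, Wfdc10 and Rnase12 lie above 2-fold at left, and the grey points of the other genes lie between -0.57 and 0.45 there.

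The genes beside the 6 on their chromosomes are given by position. In the RefSeq order of GRCm38.p6, Defb19 lies between Defb21 (MC minus M -0.20) and Defb45 (0.03), with Defb36 following Defb45. Over the 12 other measured genes of this beta-defensin locus, MC minus M ran between -0.36 and 0.44 with a median of 0.08. Wfdc8 overlaps Wfdc6b, a WAP gene on the opposite strand, whose MC minus M was 0.45 and FC minus F 0.39, and it also overlaps the small nuclear RNA gene Gm25512 (0.35). Eppin, an epididymal protease inhibitor gene next to Wfdc8, was at 0.42. Wfdc10 overlaps Wfdc9 on the opposite strand, which was at 0.12, and lies beside Wfdc11 at 0.04. Wfdc2 lies between Gm14317 (-0.12) and Spint3 (-0.03). The 16 other measured genes of the WFDC locus ran between -0.43 and 0.45 with a median of 0.095, and Wfdc8 and Wfdc10 were the only ones there at 2-fold. On chromosome 14, Rnase11, next to Rnase12, was at -0.15, and the 7 other measured genes of that locus ran between -0.15 and 0.59. With 0.224% of all genes 2-fold higher in MC than in M and 0.475% lower, a count of 0 among the 12, 16 and 7 other genes is near the share over all genes. Which strand the probes of the overlapping pairs read is not given in the sources used here.

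**Figure D4:**
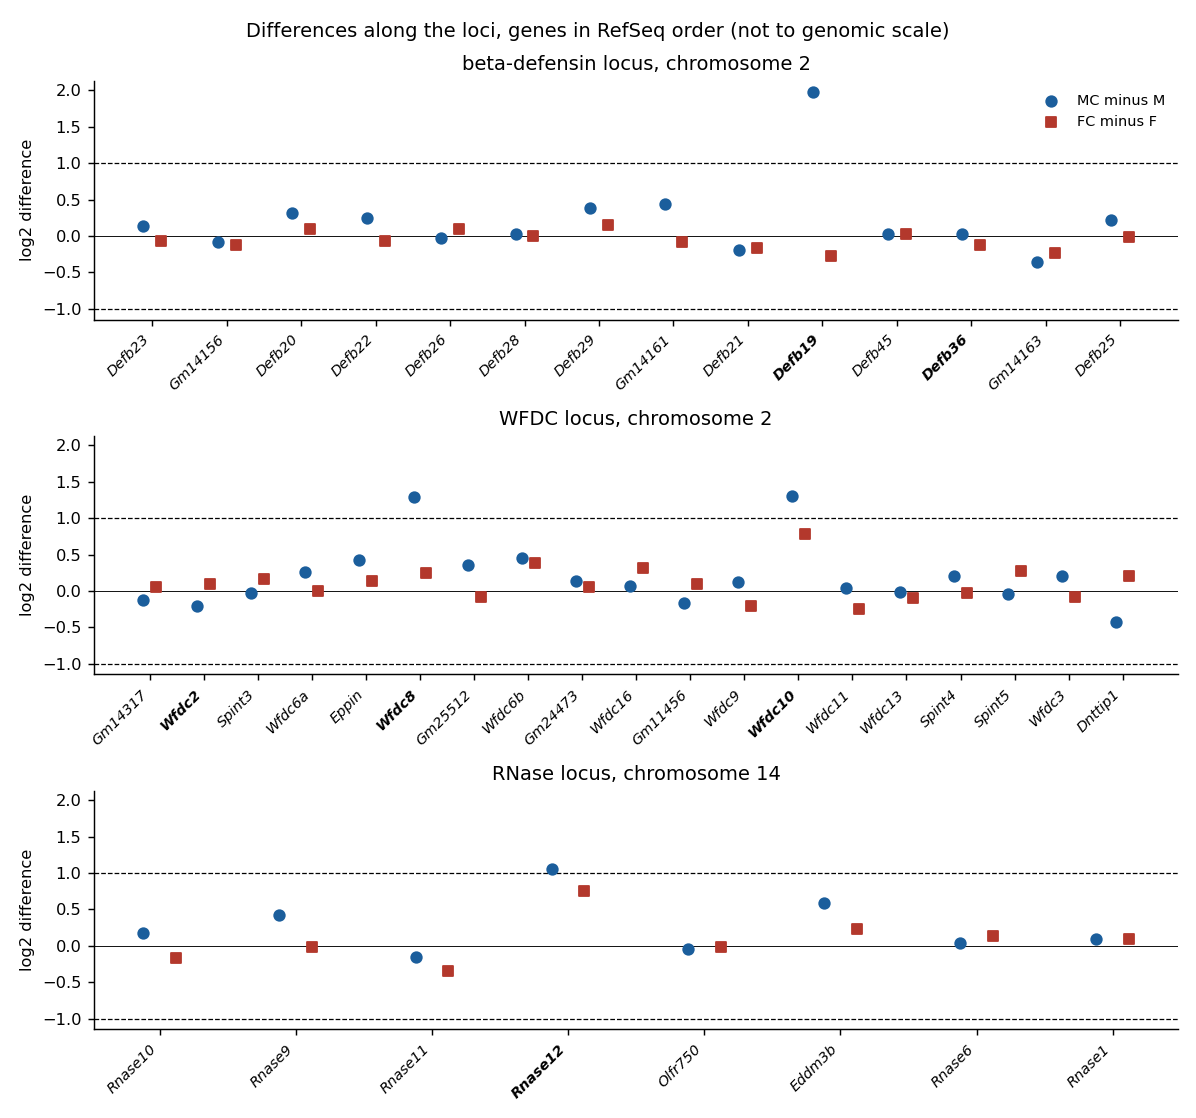
Log2 difference (y axis) of each measured gene in RefSeq order (x axis, not to genomic scale) along the beta-defensin and WFDC loci of chromosome 2 and the RNase locus of chromosome 14, with circles for MC minus M, squares for FC minus F and dashed lines at 2-fold. Defb19, Wfdc8, Wfdc10 and Rnase12, in bold with Defb36 and Wfdc2, are the only circles above 2-fold.

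Markers of somatic gonadal cells moved in the same comparison, the Sertoli list most by count. Of 27 measured Sertoli genes, 5 were 2-fold higher in MC than in M, 0 were lower and 24 were above 0, with a median of 0.32, where 0.224% of all genes were 2-fold higher and 0.475% lower. The 4 with the largest values were Nr0b1 (1.65), a nuclear receptor gene of the fetal gonad that is also on the pregranulosa list, Cst9 (1.51), the cystatin-like testatin of fetal Sertoli cells, Vnn1 (1.37), a pantetheinase, and Ctrb1 (1.18), a chymotrypsinogen. The 3 genes below 0 were Rhox8 (-0.68), Dmrt1 (-0.32) and Dhh (-0.11). Nr0b1 was at 7.48 in MC and 5.83 in M, and at 8.02 in FC and 7.47 in F, so M was its low array. M was also the low array of Vnn1, at 6.56 in MC and 5.19 in M, and at 5.82 in FC and 5.95 in F. Cst9 was at 12.63 in MC and 11.12 in M, and at 4.14 in FC and 6.21 in F. A pair of defining markers, named after their values were seen, differed from each other: Amh, the anti-Müllerian hormone, was at 5.91 in MC and 4.89 in M, and at 3.31 in FC and 3.52 in F, while Sox9, the testis transcription factor, was at 7.41 in MC and 7.31 in M, and at 6.92 in FC and 6.68 in F. The mean log2 signal of the Sertoli list was 6.01 in MC and 5.59 in M, and 5.32 in FC and 5.33 in F. Between FC and F, 0 of the 27 were 2-fold higher and Cst9 alone was lower, at -2.07, against 0.547% of all genes higher and 0.508% lower. Its higher value was in F, the array with the Y-linked signals, and the cause of this difference was not tested. Between M and F, Amh (1.37) and Cst9 (4.91) were 2-fold higher and Nr0b1 (-1.64) lower. In bulk samples, more cells of a type and more RNA per cell cannot be told apart, and the part of these cells in the values of Defb19, Wfdc8, Wfdc10 and Rnase12 was not tested.

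Marker lists named for other cell types shifted too, those named for the mesonephros and for Leydig cells by a higher median than the Sertoli list. For MC minus M, the median was 0.425 over 10 mesonephros genes, of which Pax8 (1.07) was 2-fold higher, 0.35 over 11 Leydig genes, of which Cyp11b1 (1.31) was, 0.18 over 15 interstitial genes and 0.15 over 16 leukocyte genes. It was 0.135 over 16 pregranulosa genes, of which the shared Nr0b1 (1.65) was 2-fold higher and the defining marker Foxl2 was between 2.98 and 3.04 on all 4 arrays. It was -0.21 over 13 genes of coelomic epithelium, of which Krt19 was 2-fold lower, -0.11 over 17 endothelial genes, of which Plvap was, 0.11 over 21 germ cell genes, of which Mael (2.08), Nanog (1.08) and Ddx4 (1.04) were 2-fold higher, and 0.05 over 12 genes of male germ cells, of which Tdrd9 (1.95) was. The Leydig list was low in M. Its median was -0.69 for M minus F, with 10 of 11 genes below 0, and 0.05 for MC minus FC. The mean log2 signal of the Leydig list was 6.371 in MC and 5.905 in M, and 6.38 in FC and 6.603 in F. It was thus no higher on the male arrays than on the female ones. The name of this list does not say which cells gave its signals, and that was not tested. Cyp11b1 was at 6.61 in MC and 5.30 in M, and at 6.25 in FC and 6.98 in F. For FC minus F, the medians were -0.12 (mesonephros), -0.22 (Leydig), -0.22 (interstitial), -0.285 (leukocyte), 0.145 (pregranulosa), 0.13 (coelomic epithelium), -0.59 (endothelium), 0.13 (germ cell) and -0.125 (male germ cell). Genes at 2-fold in FC against F ran both ways, where 0.547% of all genes were higher and 0.508% lower. Of the endothelial genes, 5 of 17 were lower, as were Bnc1 (at the 2-fold line, coelomic epithelium), Tyrobp (-1.43, leukocyte) and Lefty2 (-1.35, male germ cell). Higher in FC were Krt18 (1.48), Krt8 (1.33) and Aldh1a2 (at the 2-fold line) of coelomic epithelium, Cdh16 (1.11) of the mesonephros, Mael (2.10), Rhox6 (1.15) and Ddx4 (1.13) of germ cells and Tdrd9 (2.43) of male germ cells. These shifts stand beside the FC minus F values of Wfdc10 and Rnase12, and their part in those values was not tested.

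**Figure D5:**
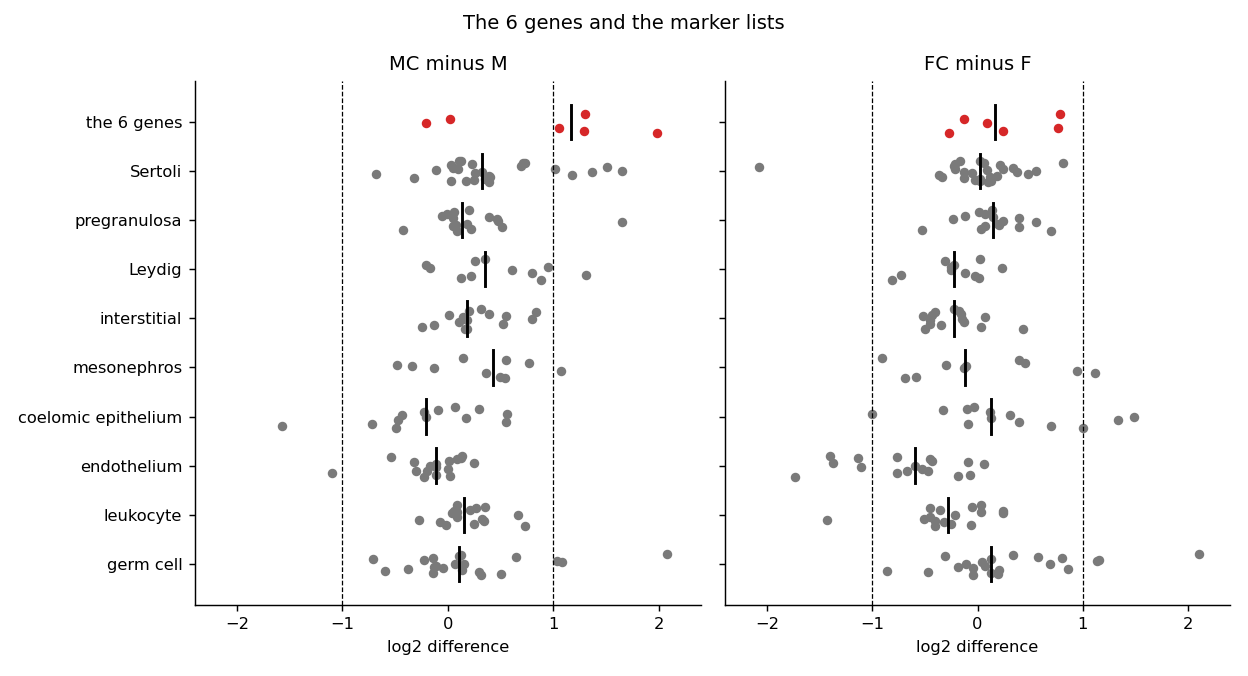
Log2 difference (x axis) of the 6 genes in red and of the marker lists named on the y axis in grey (1 point per gene), MC minus M at left and FC minus F at right, with black bars for medians and dashed lines at 2-fold. The median of the 6 is 1.17 at left and 0.165 at right, and that of the Sertoli genes is 0.32 and 0.02.

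The 4 genes that varied by 1 or more on the log2 scale had different nearest companions. Likeness was the root mean square distance between log2 signals over the 4 arrays, after each gene was centred on its own mean, and 4 arrays leave many genes close by. Nearest to Defb19 was Krt5, a keratin of basal epithelium, at a distance of 0.141, with 6.71 in MC and 4.85 in M, and 4.23 in FC and 4.36 in F. Then came the Sertoli-list gene Ctrb1 (0.2961), the microRNA gene Mir691 (0.3265), the glutathione transferase gene Gstm2 (0.3305) and Tnnc1 (0.3453), which encodes the troponin C of slow and cardiac muscle. Nearest to Wfdc10 were Pax8 (0.1355), a transcription factor gene of the developing kidney, Cox7b2 (0.1369), a cytochrome oxidase subunit gene, Fthl17b (0.1595), a ferritin-like gene of the X chromosome, C1qtnf12 (0.1674) and Sowahb (0.1758). Pax8 shared the dip in M, with 8.48 in MC and 7.41 in M, and 9.14 in FC and 8.20 in F. Nearest to Wfdc8 were Gm25565, Gm13165, Tspan15, a tetraspanin gene, Gm22927 and Gm14305, at 0.1069 to 0.1459. Nearest to Rnase12 were Gm24598, Loxl1, a lysyl oxidase gene of elastic fibres, Gm23169, Mir3971 and Gm2411, at 0.1033 to 0.2019.

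By the same measure, the 6 genes were not alike among themselves. The closest pair was Defb36 with Wfdc2, at 0.202, which were both nearly level. Among the 4 that were 2-fold higher in MC than in M, Wfdc8 and Wfdc10 were closest at 0.397 and Defb19 and Wfdc10 farthest at 0.992. Defb19 and Rnase12, which alone were also 2-fold higher in MC than in FC, were 0.523 apart. Defb19 and Defb36, which lie on either side of Defb45 on the chromosome, were 0.918 apart.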

How the data were processed

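RNA of sorted E12.5 germ cells was hybridised to 1 DNA microarray for each of MC, M, FC and F. The values that the authors deposited are log2 signals, background-subtracted and normalised by robust multiarray analysis according to the Methods, for 65956 transcript clusters. The labels name Transcriptome Analysis Console instead of R, and the array type named in the Methods differs from that of the cluster identifiers, so neither is settled here. The number of arrays limits the precision.

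Values were used as deposited, with no filter. Clusters with 1 symbol in the platform annotation (30638, and 654 whose several symbols are now 1) were updated to RefSeq symbols of GRCm38.p6. The cluster of highest mean stood for each of 30738 genes, and each of the 6 genes has 1 cluster. Clusters with several genes (1522) or not listed (33142) were left unnamed. Differences of log2 signals were computed in Python 3.11.15 with pandas 2.3.3 and called at 2-fold, with no p-value. The arithmetic of the calls was tested on simulated data with known differences, which gives no error rate for the real ones. Alternatives were quantile, median and cyclic loess scaling (limma 3.58.1, R 4.3.3), 1.5-fold and 3-fold thresholds and a filter on dim genes. The 6 genes and all gene lists were chosen with earlier results of these data known. Genes named in the text are the 6, family genes at 2-fold, up to 4 brightest and 4 most different markers per list, the 5 nearest in pattern per varying gene and the nearest neighbours. The genes at the ends of the family ranges, Max, Amh, Sox9, Foxl2 and the markers named as 2-fold apart between FC and F were added after their values were seen. Fut9, Rhox8 and Dhh also fall outside these rules.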

Additional observations from a re-analysis of the deposited data

Results flagged for a closer look

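In Defb19 and Wfdc2 the CreERT2 difference had opposite signs in the sexes, each with 1 array per condition, so none of these differences was tested. For Defb19, MC minus M exceeded FC minus F by 2.25 on the log2 scale (1.98 against -0.27). For Wfdc2 the same difference was -0.3 (-0.21 against 0.09). For Wfdc8 the male minus female value changed sign with the transgene, untested: MC minus FC exceeded M minus F by 1.05 (0.68 against -0.37). Defb36 was nearly level, and its signs rest on values close to 0. Its MC minus M exceeded its FC minus F by 0.15 (0.02 against -0.13) and its MC minus FC exceeded its M minus F by 0.15 (0.11 against -0.04), both untested. The signs of Defb36 no longer opposed each other with median centring for the first (-0.03 and -0.16) and with quantile scaling for the second (-0.015 and -0.198). The values of Defb36 and Wfdc2 lie within the SD of genes of like signal.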

How the results depend on the processing

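Of 72 values of the 6 genes under the 3 scalings, 3 changed their call, all of Rnase12 for MC minus FC: 0.918 with quantile scaling, 0.91 with median centring and 0.929 with cyclic loess, which left 1 of the 6 genes 2-fold higher in that comparison under each scaling. The sign changed, or the value came to 0, in 4 of the 72, for Defb19 (M minus F) and Defb36, whose deposited values there are 0.11 or less in size. MC minus M stayed between 1.93 and 2.05 for Defb19, 1.25 and 1.40 for Wfdc10, 1.24 and 1.34 for Wfdc8 and at or above 2-fold for Rnase12. At 3-fold, 1 of the 6 (Defb19) was higher for MC minus M and 1 for MC minus FC. At 1.5-fold, 2 were higher for FC minus F (Wfdc10, Rnase12), and for M minus F 1 was higher (Rnase12) and 1 lower (Wfdc10). Over all genes, the counts at 1.5-fold were 480 higher and 825 lower for MC minus M, 613 and 863 for FC minus F, 960 and 1062 for M minus F, and 1174 and 1611 for MC minus FC. At 3-fold they were 12 higher and 26 lower for MC minus M, 44 and 23 for FC minus F, 41 and 31 for M minus F, and 55 and 107 for MC minus FC. Median centring gave 233 genes lower for MC minus M, against 146 as deposited. The mean over clusters gave no other value, since each of the 6 genes has 1 cluster. No paired analysis was possible because each condition has 1 array, and no array could be left out.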
